A study of Homo sapiens with 20 samples.

Results

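Collagens are triple helical proteins of the extracellular matrix. Fibrillar collagens (types I, II, III, V, XI, XXIV and XXVII) give connective tissue its tensile strength, the type IV chains form the sheet of the basement membrane on which an epithelium rests, and the remaining types bind to fibrils, form microfibrils or networks, or span the cell membrane. Pancreatic and hepatic buds arise as epithelium on such a basement membrane, next to mesenchyme that lays down fibrils, so that collagen transcripts describe both the epithelium and the cells around it. The collagen genes described here were taken by symbol (COL, a type number, A, a chain number, with nothing after), and had to be present in both bulk count tables and all 4 single-cell matrices. This rule found 44 collagens among the 36601 genes of the day 21 WT matrix. By structure they fell into 11 fibrillar chains, 6 basement membrane chains of type IV, 3 basement membrane zone chains, 6 beaded filament chains, 3 hexagonal network chains, 10 fibril-associated chains, 4 transmembrane chains and 1 other.

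The cells were HUES8, a human embryonic stem cell line that here carried inducible Cas9, either wild type (WT) or with the GPX2 gene deleted (GPX2 KO). GPX2 is a selenium-dependent glutathione peroxidase that removes hydroperoxides. The KO was made with CRISPR/Cas9 and grown from single cells. The study names 1 clone for most RNA measurements and a second clone for chromatin, and a caption names the second clone for the day 21 cell shares. A clone and the genotype therefore cannot be told apart. At day 6, posterior foregut (PFG) cells were measured by bulk RNA-seq in 2 WT and 2 KO libraries. Their titles carry the mark sp, as do those of the day 8 spontaneous libraries, while the study describes them as posterior foregut. At day 8 of spontaneous differentiation, bulk RNA-seq was made of 2 libraries each of WT, of WT treated with H2O2 (WT+H2O2; 10 nM by the labels, while the methods also give it in micromolar), of KO, and of KO given sodium selenite at 100 pM (KO+Se). The genotype field of all 8 day 8 libraries reads WT, and the KO groups were taken from the titles. Early pancreatic endoderm (PEN, day 8) and stem cell-derived beta (SC-β, day 21) cultures were each measured in single cells with 1 library per genotype, and chromatin was measured by ATAC-seq at day 8 of spontaneous differentiation in WT and KO, with the replicates of a genotype merged. The study states biological replicates for its experiments in general, and for ATAC-seq in its captions. No bulk RNA library was itself stated to be a separate culture. The p-values then describe the spread between these libraries, which may be technical.

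Bulk libraries held 7315509 to 9725172 assigned read pairs at day 6 and 4234408 to 8617728 at day 8. GPX2 was at 17.7 and 7.58 CPM (read pairs scaled to a common library total) in WT and 3.85 and 5.65 CPM in KO at day 6, and at 98.0 and 117 CPM in WT against 25.9 and 25.2 CPM in KO at day 8, so that the deleted gene had fewer reads in the KO libraries but was not at 0. The differences were −1.42 at day 6 and −2.07 at day 8 on the log2 scale (edgeR, adjusted p = 0.229 and 0.104). With the letter (day 6) or number (day 8) of the column headings as a term, GPX2 was called lower in KO at both time points (edgeR, adjusted p under 0.05). In single cells GPX2 had 4 UMIs in WT and 1 in KO at PEN, and 2.94 and 0.987 CPM at SC-β. Summed markers of definitive endoderm and foregut were all detected at both bulk time points. Mesenchyme markers summed to 228 to 328 CPM at day 6, of which PDGFRA alone was 213 to 314 CPM while DCN, PRRX1, TWIST1, TWIST2 and FOXF1 were at no more than 0.520 CPM. At day 8 they summed to 214 to 567 CPM, with PDGFRA at 177 to 357 CPM and LUM at 6.62 to 164 CPM, and the day 8 libraries also held hepatic markers (5854 to 18592 CPM) and surface ectoderm and amnion markers (92.2 to 812 CPM). In bulk RNA, fewer cells of a type and less RNA per cell cannot be told apart.

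The type IV genes lie head to head in pairs, each pair leaving from a shared stretch of DNA between the starts, and 3 promoters are printed here because their genes carry most of the results that follow. COL4A1 is the most abundant collagen per kilobase at day 8 of spontaneous differentiation, COL4A6 is, with COL4A5, a chain whose KO libraries were below WT at both bulk time points, and COL9A2 is the collagen that differed most between the 2 sets of day 8 libraries. Each runs 5′ to 3′ on the coding strand from 250 bases before to 50 after the RefSeq start, in GRCh38.p14, and all 3 genes are on the minus strand. Capitals mark the CCAAT box (CCAAT or its reverse ATTGG) and the GC box (GGGCGG or its reverse CCGCCC), searched by their letters alone.
COL4A1 (chr13:110307108-110307407, minus strand): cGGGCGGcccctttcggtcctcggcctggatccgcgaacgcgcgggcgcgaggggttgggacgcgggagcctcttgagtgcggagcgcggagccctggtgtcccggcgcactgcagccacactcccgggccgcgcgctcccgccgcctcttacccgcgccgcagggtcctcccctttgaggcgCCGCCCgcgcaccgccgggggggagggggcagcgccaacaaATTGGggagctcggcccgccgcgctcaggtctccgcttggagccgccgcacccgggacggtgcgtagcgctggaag
COL4A6 (chrX:108439409-108439708, minus strand): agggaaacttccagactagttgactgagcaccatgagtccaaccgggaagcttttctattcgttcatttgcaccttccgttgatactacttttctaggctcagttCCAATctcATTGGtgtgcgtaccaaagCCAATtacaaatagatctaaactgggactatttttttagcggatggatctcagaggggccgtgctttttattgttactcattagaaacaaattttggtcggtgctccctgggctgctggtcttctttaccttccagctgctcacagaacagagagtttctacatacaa
COL9A2 (chr1:40317237-40317536, minus strand): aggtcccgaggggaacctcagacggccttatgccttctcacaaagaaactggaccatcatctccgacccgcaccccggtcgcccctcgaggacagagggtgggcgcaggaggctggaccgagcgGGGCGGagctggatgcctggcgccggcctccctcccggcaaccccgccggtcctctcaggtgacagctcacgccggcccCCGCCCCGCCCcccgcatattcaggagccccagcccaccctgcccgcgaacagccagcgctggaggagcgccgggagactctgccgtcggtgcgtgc

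The COL4A1 window held 1 CCAAT box and 2 GC boxes, the COL4A6 window 3 CCAAT boxes and no GC box, and the COL9A2 window 3 GC boxes, of which a pair overlap, and no CCAAT box. The starts of COL4A1 and COL4A2 were 126 bases apart in RefSeq, so that their windows shared 226 of 300 bases. Those of COL4A6 and COL4A5 were 379 bases apart and those of COL4A4 and COL4A3 were 418 bases apart. Of the 44 collagens, 32 had a promoter in the RefSeq table. Among these, 10 of 32 held a CCAAT box, 18 of 32 a GC box and 5 of 32 a TATA box (TATAAA or its reverse TTTATA, which can overlap each other), while the shares over all 35116 promoters of that length were 34.6%, 45.0% and 11.5%. A match of letters is a description of the window and not a bound site.

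In PFG cells at day 6 the collagen transcripts were mainly those of the basement membrane. The 6 type IV chains together reached 3789 and 3396 CPM in WT and 4007 and 3272 CPM in KO, out of 5886, 5250, 6201 and 5328 CPM for all collagens in the same 4 libraries. The 3 basement membrane zone chains followed with 579 to 908 CPM. Fibrillar chains summed to 414 to 495 CPM, fibril-associated chains to 385 to 441 CPM and beaded filament chains to 236 to 315 CPM. COL3A1, the chain of type III collagen and a hallmark of fibrous mesenchyme, stayed between 0.234 and 1.85 CPM, and COL8A1 and COL6A5 were at 0 in all 4 libraries. Of these sums, that of the fibril-associated chains was lower in both KO libraries (410 and 385 CPM against 429 and 441 CPM), and the basement membrane, basement membrane zone, fibrillar and beaded filament sums overlapped. Of the 44 collagens, 30 passed the filter on low counts and were tested.

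No collagen passed an adjusted p of 0.05 between KO and WT at day 6 (0 of 30, edgeR quasi-likelihood test, Benjamini-Hochberg), where 0.383% of all 14633 genes tested did. DESeq2 and limma-voom also called 0 collagens, and 8 of 30 were under an unadjusted p of 0.05, where 9.55% of all genes were. With the letter of the column headings (E or F) as a term, 7 of 30 were called (23.3%, against 5.75% of all genes). No label says what the letter marks. The count of 0 depended on single libraries: it was 10 of 36 (and 977 of all 15488 genes) without the WT library of letter E, 2 of 34 without either KO library and 0 of 34 without the WT library of letter F. The libraries of KO and WT did not overlap for 11 collagens. In 6 of 30 both KO libraries were higher (COL4A1, COL9A3, COL11A1, COL16A1, COL17A1 and COL19A1), a pattern held by 20.0% of all genes, and in 5 of 30 both were lower (COL4A4, COL4A5, COL4A6, COL9A2 and COL26A1), as in 19.8% of all genes. Their median difference was 0.17 on the log2 scale against −0.0052 for all genes, and 18 of 30 were positive.

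Within type IV the 2 abundant head-to-head pairs had KO to WT differences of opposite sign at day 6, none of them past the threshold. COL4A1 was at 1148 and 881 CPM in WT and at 1549 and 1174 CPM in KO, a difference of 0.42 ± 0.15 on the log2 scale (SE, n = 2 per group, adjusted p = 0.383). Both KO libraries were above both WT libraries, with a gap between the groups smaller than the spread within either. COL4A2, its partner, was at 547 and 368 CPM in WT and 641 and 504 CPM in KO (0.32 ± 0.18, SE), with overlapping groups. COL4A6 was at 1301 and 1297 CPM in WT and at 1098 and 937 CPM in KO (−0.35 ± 0.09, SE, adjusted p = 0.179). COL4A5, which pairs with it, was at 787 and 847 CPM in WT and at 717 and 654 CPM in KO (−0.25 ± 0.08, SE, adjusted p = 0.310). For both genes the WT libraries lay together above the KO libraries. COL4A4, a chain of the specialised basement membrane of kidney and lung, was low, at 4.21 and 2.62 CPM in WT and 1.14 and 1.75 CPM in KO (−1.24 ± 0.42, SE, adjusted p = 0.339).

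Outside type IV the most abundant collagen was COL18A1, the basement membrane zone chain that gives rise to endostatin. It was at 721 and 563 CPM in WT and at 885 and 715 CPM in KO, with overlapping groups (0.32 ± 0.13, SE, adjusted p = 0.491). The type IX chains, which decorate type II fibrils, did not share a direction. COL9A2 was at 362 and 379 CPM in WT and 322 and 297 CPM in KO (−0.26 ± 0.08, SE, adjusted p = 0.289), and COL9A3 at 32.4 and 22.9 CPM in WT and 41.5 and 40.9 CPM in KO (0.57 ± 0.16, SE, adjusted p = 0.244). COL27A1, a fibrillar chain of cartilage, was at 276 and 239 CPM in WT and 208 and 244 CPM in KO, and overlapped. COL6A1, a beaded filament chain, was at 206 and 162 CPM in WT and 213 and 203 CPM in KO. The transmembrane chain COL17A1 of hemidesmosomes was at 1.05 and 1.24 CPM in WT and 2.39 and 2.26 CPM in KO. It was among the lowest collagens tested.

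**Figure D1:**
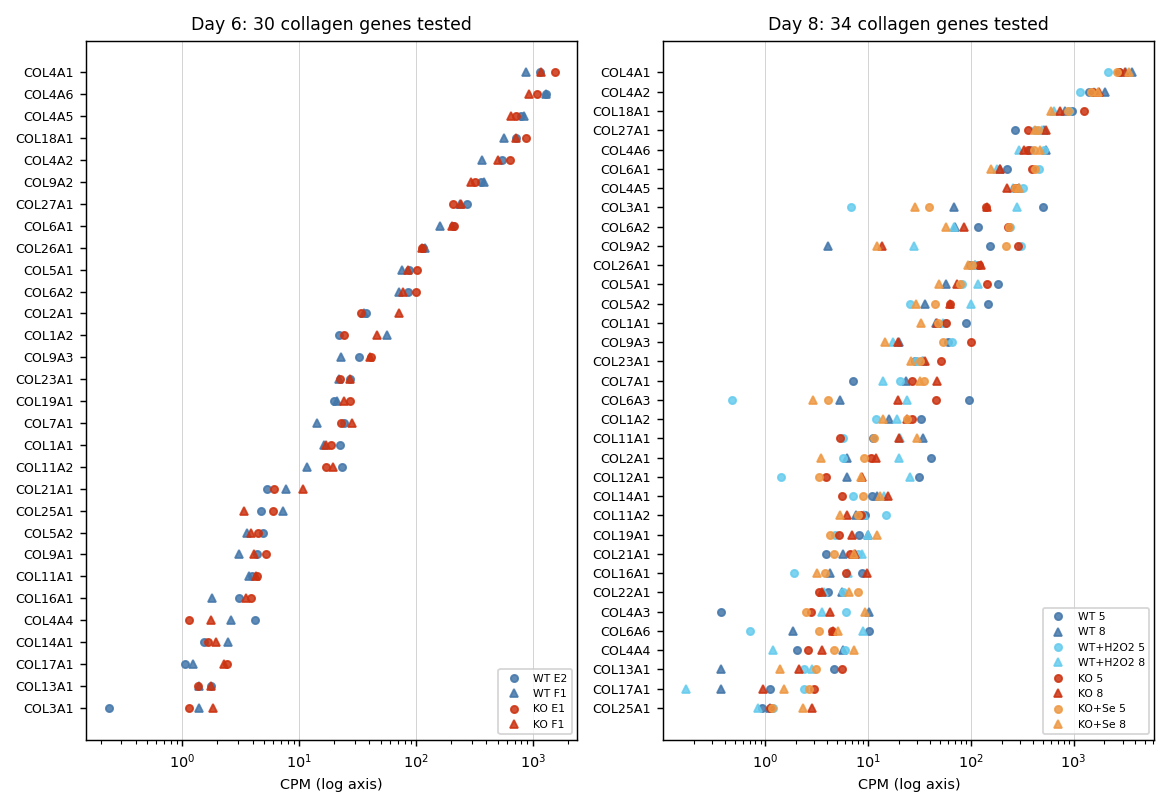
Level of each collagen tested in each bulk library, in CPM on a log axis, at day 6 (30 collagens) and at day 8 of spontaneous differentiation (34 collagens). Each point is 1 library, colours are groups, and circles and triangles separate the letters E and F (day 6) or the numbers 5 and 8 (day 8) of the column headings; libraries at 0 cannot be drawn. COL4A1, COL4A2 and COL18A1 lie near the top at both time points, while COL4A4 lies far lower. At day 8 the circles and triangles of COL9A2 lie far apart.

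At day 8 of spontaneous differentiation the basement membrane chains again held most of the collagen RNA, at 4185 to 6591 CPM in the 8 libraries out of 7003 to 8717 CPM for all collagens. Per kilobase of exon, which allows genes of unlike length to be compared, COL4A1 was the highest with a mean of 204 CPM per kb over the 8 libraries. COL18A1 (101 CPM per kb), COL4A2 (82.3), COL6A1 (50.1), COL4A6 (44.5) and COL26A1 (35.1) followed. COL27A1 (31.0 CPM per kb) was the highest fibrillar chain, ahead of COL3A1 (22.4), and COL9A2 (30.6) was the highest fibril-associated chain. COL10A1, the network collagen of hypertrophic cartilage, reached no more than 1.28 CPM, COL8A2 no more than 0.701 CPM, and COL8A1 had 1 read pair in 1 library. Of the 44 collagens, 34 passed the filter on low counts.

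No collagen differed between genotypes or treatments at day 8 at an adjusted p of 0.05 (edgeR quasi-likelihood test, Benjamini-Hochberg). The count was 0 of 34 for KO against WT, where 0% of all 14470 genes were called, 0 of 34 for WT+H2O2 against WT (0% of all genes), 0 of 34 for KO+Se against KO (0%) and 0 of 34 for KO+Se against WT (0%). For KO against WT+H2O2 it was also 0 of 34, and 0.00691% of all genes were called, which is GPX2 alone (−2.33 on the log2 scale, adjusted p = 0.0486). DESeq2 and limma-voom called 0 collagens in each of the 5 comparisons. At an unadjusted p under 0.05 there was 1 collagen in KO against WT (COL7A1), 1 in KO+Se against KO (COL22A1), 1 in KO+Se against WT and 0 in both others. These comparisons share the WT, WT+H2O2 and KO libraries, and their values are therefore not independent of each other.

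COL4A1 was at 2785 and 3718 CPM in WT, 2167 and 3254 CPM in WT+H2O2, 2797 and 3146 CPM in KO and 2663 and 3456 CPM in KO+Se. Within each pair the second library, numbered 8 in the column headings, was the higher one, and the KO libraries lay between those of WT (−0.13 ± 0.24 on the log2 scale for KO against WT, SE). COL4A2 was at 1422 and 2019 CPM in WT, 1169 and 1584 CPM in WT+H2O2, 1543 and 1767 CPM in KO and 1464 and 1727 CPM in KO+Se (−0.056 ± 0.22 for KO against WT). COL18A1 went the other way within each pair, with 964 and 827 CPM in WT, 905 and 640 CPM in WT+H2O2, 1259 and 740 CPM in KO and 874 and 603 CPM in KO+Se (0.16 ± 0.31 for KO against WT). For these 3 genes the KO and WT libraries overlapped.

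COL4A6 and COL4A5 were the only collagens whose KO libraries lay below WT at both time points without overlap. The share of all genes with this pattern at both time points was not counted, and the gaps at day 8 were narrow. COL4A6 was at 379 and 542 CPM in WT and at 360 and 329 CPM in KO at day 8 (−0.42 ± 0.29 on the log2 scale, SE), with 514 and 296 CPM in WT+H2O2 and 411 and 473 CPM in KO+Se. COL4A5 was at 272 and 296 CPM in WT and at 268 and 224 CPM in KO (−0.21 ± 0.18, SE), with 323 and 256 CPM in WT+H2O2 and 270 and 292 CPM in KO+Se. KO+Se was above KO for both genes, for COL4A5 by a narrow margin (0.36 ± 0.29 for COL4A6 and 0.19 ± 0.18 for COL4A5). None approached the threshold, the lowest adjusted p of any collagen in these comparisons being 1.00. At day 8 4 of 34 collagens lay lower in KO without overlap (COL4A5, COL4A6, COL19A1 and COL22A1), as did 13% of all genes, and 5 of 34 lay higher (COL7A1, COL21A1, COL23A1, COL25A1 and COL26A1), as did 13.5%.

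**Figure D2:**
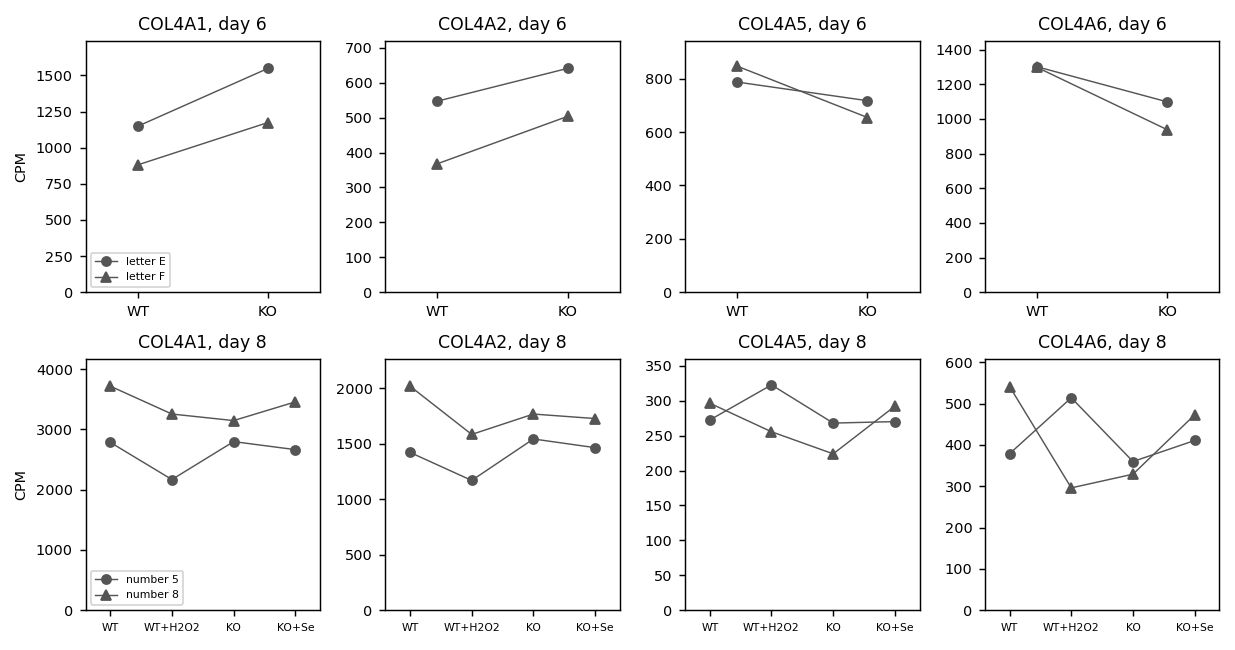
CPM of the 4 abundant type IV chains in each bulk library, at day 6 (top row, lines join libraries with the same letter) and day 8 of spontaneous differentiation (bottom row, lines join libraries with the same number), on linear axes. At day 6 COL4A1 and COL4A2 run upwards and COL4A5 and COL4A6 downwards from WT to KO along each line; at day 8 COL4A1 ranges from 2167 to 3718 and for COL4A1 and COL4A2 the line of number 8 lies above that of number 5 in every group.

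Among the collagens outside type IV, COL7A1, the anchoring fibril chain beneath stratified epithelium, had the largest KO to WT separation at day 8 relative to its error. It was at 7.20 and 23.2 CPM in WT, 20.6 and 13.9 CPM in WT+H2O2, 27.0 and 47.1 CPM in KO and 34.7 and 32.0 CPM in KO+Se (1.28 ± 0.53 on the log2 scale for KO against WT, SE, adjusted p = 1.00). Both KO groups were above both WT groups in every library. COL23A1, a transmembrane chain, was at 28.8 and 34.2 CPM in WT, 29.1 and 33.7 CPM in WT+H2O2, 51.3 and 35.4 CPM in KO and 32.2 and 26.2 CPM in KO+Se. COL26A1 was nearly level, between 94.8 and 126 CPM in the 8 libraries.

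For COL3A1, COL6A3 and COL5A2, fibrillar and microfibrillar collagens of mesenchyme, the libraries of WT and those of WT+H2O2 lay far apart. Those of KO and those of KO+Se lay closer together. COL3A1 was at 500 and 68.9 CPM in WT, 6.86 and 279 CPM in WT+H2O2, 142 and 144 CPM in KO and 39.3 and 28.7 CPM in KO+Se. COL6A3, a type VI chain of connective tissue, was at 95.0 and 5.34 CPM in WT, 0.473 and 23.8 CPM in WT+H2O2, 45.7 and 19.7 CPM in KO and 4.11 and 2.92 CPM in KO+Se. COL5A2, which sets fibril diameter with type I collagen, was at 147 and 35.5 CPM in WT, 25.8 and 100 CPM in WT+H2O2, 62.2 and 62.6 CPM in KO and 44.5 and 29.2 CPM in KO+Se. The first WT library was the highest for all 3 genes and the first WT+H2O2 library the lowest, and both KO+Se libraries were below both KO libraries. The surface ectoderm and amnion markers were also highest in the first WT and lowest in the first WT+H2O2 library, but overlapped between KO and KO+Se, summing to 812 and 273 CPM in WT, 92.2 and 602 CPM in WT+H2O2, 280 and 554 CPM in KO and 213 and 374 CPM in KO+Se. The mesenchyme markers summed to 567 and 412, 214 and 467, 381 and 428, and 264 and 438 CPM in the same order, and their part in the result was not tested.

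In KO+Se 8 of 34 collagens were below KO without overlap (COL1A2, COL2A1, COL3A1, COL5A2, COL6A3, COL16A1, COL23A1 and COL26A1), against 11.7% of all genes, and 4 of 34 were above (COL4A4, COL4A5, COL4A6 and COL22A1), against 10.8%. The differences with the widest errors were among them, at −2.08 ± 1.41 on the log2 scale for COL3A1 and −3.23 ± 1.59 for COL6A3 (SE). COL22A1, a collagen of tissue junctions, was at 3.33 and 3.57 CPM in KO and 7.89 and 6.54 CPM in KO+Se (1.06 ± 0.39, SE, adjusted p = 1.00), with 4.06 and 5.52 CPM in WT and 5.67 and 3.69 CPM in WT+H2O2. H2O2 separated fewer collagens from WT, with 2 of 34 higher without overlap (COL21A1 and COL26A1; 10.6% of all genes) and 0 of 34 lower (10.1%). The median difference over the 34 collagens was −0.14 on the log2 scale for KO against WT, −0.16 for WT+H2O2 against WT and −0.15 for KO+Se against KO, where the medians of all genes were −0.002, 0.0026 and 0.015.

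The day 8 headings number 1 library of each group 5 and the other 8, without saying what the number marks. A part of the collagens differed between these numbers, as did a part of all genes. The comparison was added after the data had been seen, with the group as a term and 4 libraries on each side. Genotype and treatment had been compared with 2 libraries on each side and no term for the number, so the counts are not like for like. The comparison of numbers called 12 of 34 collagens (35.3%, edgeR quasi-likelihood test, Benjamini-Hochberg), where 25.2% of all genes were called. Lower in number 8 were 7 of 34 (13.6% of all genes), and higher 5 of 34 (11.6% of all genes). Leaving out 1 library at a time gave 8 to 15 collagens, and 1620 to 4310 of all genes.

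The collagens that fell from number 5 to number 8 were led by type IX. COL9A2 was at 153, 311, 287 and 222 CPM in the number 5 libraries of WT, WT+H2O2, KO and KO+Se and at 4.05, 27.8, 13.6 and 12.1 CPM in those of number 8 (−4.20 ± 0.22 on the log2 scale, SE, adjusted p = 3.30e-05). No number 8 library came near a number 5 library. COL9A3 ran from 53.3 to 99.9 CPM in number 5 and from 14.5 to 19.9 CPM in number 8 (−1.93, adjusted p = 8.35e-05). The type VI chains COL6A2 (118 to 241 against 57.1 to 85.4 CPM; −1.52, adjusted p = 6.65e-04) and COL6A1 (224 to 461 against 158 to 193 CPM; −1.004, adjusted p = 0.00396) followed. COL18A1 (−0.51, adjusted p = 0.00448), COL1A1 (−0.48, adjusted p = 0.0411) and COL17A1 (−1.58, adjusted p = 0.0472) also fell.

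Of the basement membrane chains COL4A1 and COL4A2 rose, and of type XI collagen COL11A1. COL11A1, a minor fibrillar chain that nucleates type II fibrils, ran from 5.37 to 11.5 CPM in number 5 and from 20.0 to 34.1 CPM in number 8 (1.66 on the log2 scale, adjusted p = 2.97e-04). COL4A1 ran from 2167 to 2797 CPM in number 5 and from 3146 to 3718 CPM in number 8 (0.39, adjusted p = 0.00574), and COL4A2 from 1169 to 1543 CPM and from 1584 to 2019 CPM (0.34, adjusted p = 0.00972). COL14A1 (0.78, adjusted p = 0.0368) and COL19A1 (0.82, adjusted p = 0.0424), both fibril-associated, rose too. The 2 numbers also differed in summed markers: hepatic markers ran from 5854 to 11902 CPM in number 5 and from 13984 to 18592 CPM in number 8, pluripotency markers from 909 to 1506 CPM and from 576 to 818 CPM, and endothelial markers from 52.6 to 102 CPM and from 3.68 to 16.9 CPM. Their part in the result was not tested.

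**Figure D3:**
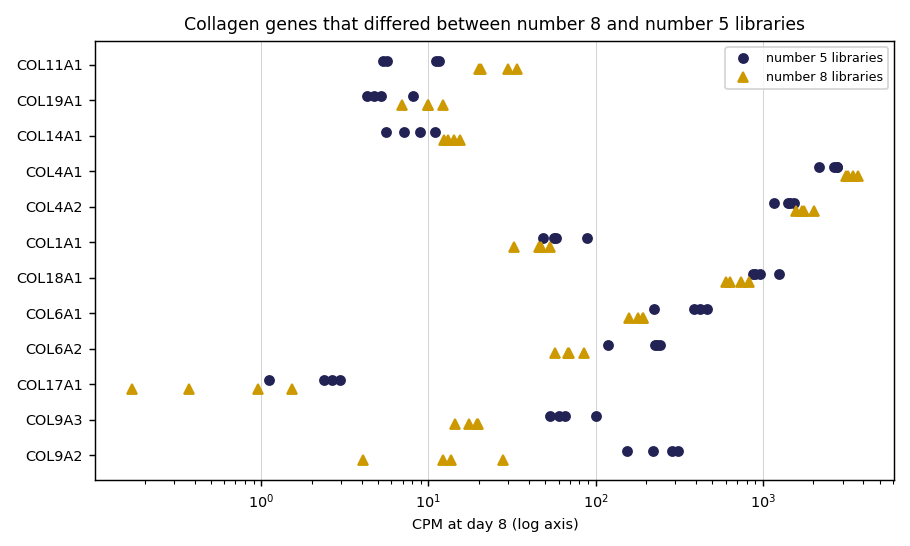
CPM, on a log axis, of the 12 collagens called between the day 8 libraries numbered 8 and 5 in their headings. Each point is 1 library and each side holds 4 libraries, 1 of each group; COL9A2 runs from 153 to 311 in number 5 and from 4.05 to 27.8 in number 8.

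The enzymes, carriers, receptors and proteases that act on collagens were read from a fixed list of 57 genes. At day 6, 48 of 57 were tested and 0 were called between KO and WT, and at day 8, 49 of 57 were tested and 0 were called in any of the 5 comparisons (edgeR). Between numbers 8 and 5, 15 of 49 were called (30.6%, against 25.2% of all genes), 10 higher and 5 lower in number 8. Of the 6 with the largest changes, MMP1, the interstitial collagenase, rose by 2.09 on the log2 scale, ADAMTS14, which trims procollagen, by 1.24 and TIMP3, an inhibitor of matrix proteases, by 1.19. MRC2, the receptor for uptake of collagen fragments, fell by 1.41, the crosslinking enzyme LOXL3 by 1.42 and PCOLCE2, an enhancer of procollagen cleavage, by 1.80.

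In PEN cells 1701 WT and 1837 KO cells were kept, with medians of 1040 and 836 UMIs per cell and no shared barcode. With 1 library per genotype there is no test, and ratios of summed UMIs, each scaled to the library's UMI total (KO over WT), are given with exact 95% intervals that cover counting error only. Of the 44 collagens, 31 had 20 UMIs or more over both libraries. In 10 of 31 KO was more than 1.5-fold higher, where 9.06% of all 13690 genes counted were, and in 7 of 31 more than 1.5-fold lower, where 14% were. The median ratio was 1.16 over the collagens and 0.970 over all genes.

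The X-linked pair of type IV chains gave the most abundant collagens of PEN cells and was close to equal in both genotypes. COL4A5 was at 981 CPM in WT and 893 CPM in KO (ratio 0.910, 0.861 to 0.962) and COL4A6 at 418 and 420 CPM (1.005, 0.925 to 1.09). The chromosome 13 pair was higher in KO, with COL4A2 at 123 and 207 CPM (1.69, 1.48 to 1.94) and COL4A1 at 67.3 and 80.3 CPM (1.19, 0.977 to 1.46). The interval of COL4A1 included 1. COL18A1 was at 127 and 194 CPM (1.53, 1.33 to 1.75) and COL23A1 at 35.5 and 57.2 CPM (1.61, 1.24 to 2.09). Within clusters that held 50 or more cells of each genotype, the COL4A2 ratio was above 1 in 6 of 7 (0.860 in the other one) and that of COL4A5 below 1 in 7 of 7, from 0.734 to 0.951. The COL4A2 interval left out 1 only in cluster 3 (1.14 to 2.65) and cluster 4 (1.26 to 1.98). That of COL4A5 did so only in cluster 1 (0.551 to 0.965). The clusters come from the same 2 libraries and do not repeat the comparison, and the share of all genes with 1 direction across clusters was not counted.

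Less abundant collagens differed by more. COL19A1 was at 10.8 CPM in WT and 35.3 CPM in KO (3.27, 2.16 to 5.09), COL21A1 at 5.58 and 19.2 CPM (3.45, 1.93 to 6.48) and COL9A3 at 9.76 and 26.5 CPM (2.72, 1.73 to 4.38). COL7A1 (12.9 and 25.4 CPM, 1.97), COL1A1 (13.2 and 24.6 CPM, 1.86), COL6A2 (6.97 and 14.98 CPM, 2.15) and COL10A1 (4.18 and 6.53 CPM, 1.56, with an interval from 0.703 to 3.58) were also higher in KO. Lower in KO were COL22A1 (26.8 and 17.7 CPM, 0.659), COL4A3 (13.6 and 8.07 CPM, 0.594), COL4A4 (16.4 and 7.68 CPM, 0.469), COL14A1 (12.5 and 6.53 CPM, 0.521), COL12A1 (12.9 and 6.53 CPM, 0.507), COL9A1 (11.2 and 4.99 CPM, 0.448) and COL1A2 (10.8 and 4.99 CPM, 0.462). The intervals of COL10A1 and COL4A3 (0.332 to 1.03) included 1.

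Cells were clustered without the collagen genes, which gave 11 PEN clusters, and 2 clusters held nearly only KO cells. Cluster 9 (10 WT and 85 KO cells), led by IGFBP5, GPC5, TFAP2B and GABRP, had the highest level of 5 fibrillar chains. COL1A1 was at 321 CPM there, with 38.2% of its UMIs over all clusters, COL5A2 at 247 CPM, COL2A1 at 165 CPM, COL5A1 at 90.6 CPM and COL3A1 at 66 CPM, with 8 of its 13 UMIs. Other fibrillar chains did not follow, with COL27A1 at its lowest there (57.7 CPM) and COL11A1, COL11A2 and COL24A1 at 0. COL4A5 (412 CPM), COL4A6 (132 CPM) and COL4A1 (16 CPM) were at their lowest of the 11 clusters there, whereas COL4A2 (132 CPM) was within its range over the others. In cluster 9 TFAP2B and GABRP were at 478 CPM each and TFAP2A at 190 CPM. Of the mesenchyme genes, DCN was at 41.2 CPM, LUM at 24.7 CPM and PRRX1 at 8.24 CPM. PDGFRA (33.0 CPM) was at its lowest of the 11 clusters there. PDGFRB, TWIST1, TWIST2, THY1, POSTN and FOXF1 were at 0, as were the endothelial genes PECAM1 and CDH5. Cluster 10 (5 WT and 275 KO cells), led by MARCHF1 and GASK1B, held 39.0% of the COL19A1 UMIs (126 CPM), and had COL18A1 at 352 CPM, COL4A2 at 316 CPM, COL4A6 at 520 CPM and COL4A1 at 139 CPM. These clusters carried too few fixed markers for a name.

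At the SC-β stage 6128 WT and 5611 KO cells were kept, with medians of 5638 and 8061 UMIs per cell and 7 shared barcodes. Of 39 collagens with 20 UMIs or more, 13 of 39 were more than 1.5-fold higher in KO, where 13.7% of all 22166 genes counted were, and 10 of 39 more than 1.5-fold lower, where 16.0% were. The median ratio was 1.24 over the collagens and 0.937 over all genes. The KO deposit holds unfiltered barcodes and the WT deposit filtered ones, so that RNA free in the suspension could be read only in KO, from barcodes with few UMIs.

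**Figure D4:**
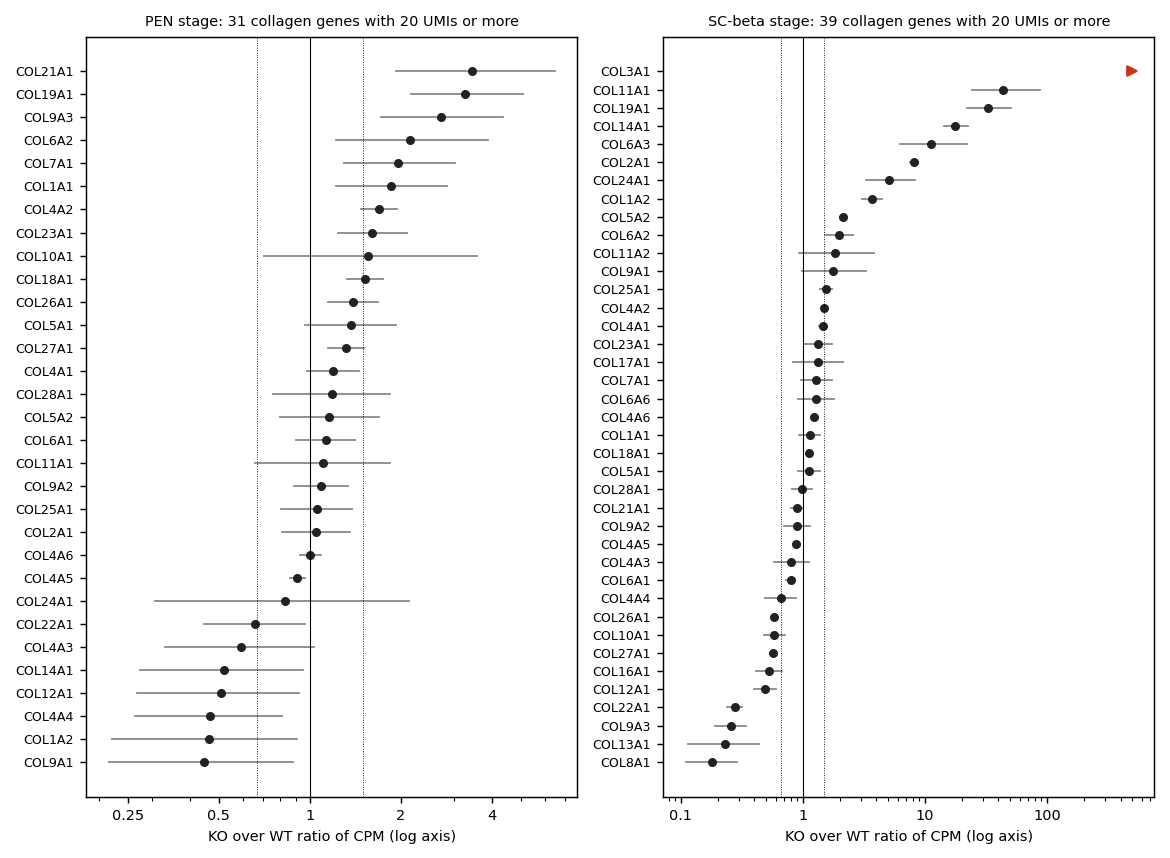
KO over WT ratio of CPM for each collagen with 20 UMIs or more, in PEN (31 collagens) and SC-β (39 collagens) cells, on a log axis. Bars are exact 95% intervals for counting error in 1 library per genotype, and dotted lines mark 1.5-fold. The triangle is the ratio of COL3A1 with 3 UMIs assumed in WT, since it had 0 UMIs in WT SC-β cells. COL4A5 and COL4A6 lie near 1 at both stages, while COL2A1, COL14A1, COL19A1 and COL11A1 lie far above 1 at SC-β.

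The 4 abundant type IV chains stayed within 1.5-fold at this stage. COL4A5 was at 191 CPM in WT and 168 CPM in KO (0.879), COL4A6 at 53.9 and 66.7 CPM (1.24), COL4A2 at 70.4 and 105 CPM (1.49, 1.42 to 1.57) and COL4A1 at 28.7 and 41.9 CPM (1.46, 1.35 to 1.57). COL18A1 was at 132 and 149 CPM (1.13). COL4A4 was low and lower in KO (2.89 and 1.91 CPM, 0.662).

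Most of the larger rises in KO were in fibrillar and fibril-associated chains, though others of these classes, such as COL1A1 (1.14) and COL21A1 (0.895), stayed within 1.5-fold. COL2A1, the main fibril chain of cartilage, was at 25.1 CPM in WT and 202.2 CPM in KO (8.07, 7.54 to 8.64), and at 119 CPM in KO barcodes with few UMIs. COL3A1 had 0 UMIs in WT and 1873 UMIs (40.2 CPM) in KO. Its ratio was 497 when 3 UMIs were assumed in the WT library, and its exact interval ran from 404 upwards. It was at 72.3 CPM in KO barcodes with few UMIs. COL14A1, which binds type I fibrils, was at 2.18 and 38.7 CPM (17.7, 14.2 to 22.4), COL19A1 at 0.674 and 22.1 CPM (32.7, 22.1 to 50.8) and COL11A1 at 0.297 and 12.96 CPM (43.7, 24.2 to 88.0). COL5A2 was at 35.7 and 76.4 CPM (2.14, 2.01 to 2.28), COL1A2 at 3.75 and 13.8 CPM (3.69) and COL6A3 at 0.324 and 3.61 CPM (11.1, 6.21 to 22.0). COL24A1 (0.620 and 3.18 CPM, 5.12), COL25A1 (13.3 and 20.7 CPM, 1.55), COL6A2 (2.24 and 4.42 CPM, 1.97), COL11A2 (0.351 and 0.644 CPM, 1.84, 0.929 to 3.83) and COL9A1 (0.486 and 0.858 CPM, 1.77, 0.991 to 3.28) completed the group. The intervals of COL11A2 and COL9A1 included 1. In KO barcodes with few UMIs, COL5A2 (96.7 CPM), COL1A2 (28.1 CPM), COL25A1 (32.7 CPM), COL6A2 (5.19 CPM), COL9A1 (0.961 CPM) and COL11A2 (0.769 CPM) were, like COL3A1, above their level in KO cells. COL14A1 (14.4 CPM), COL19A1 (10.2 CPM), COL11A1 (6.15 CPM), COL6A3 (2.31 CPM) and COL24A1 (2.88 CPM) were, like COL2A1, below it. The part of this free RNA in the ratios was not tested.

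Lower in KO were COL27A1 (112 and 63.3 CPM, 0.567, 0.541 to 0.595), COL26A1 (59.2 and 34.4 CPM, 0.581) and COL22A1 (20.0 and 5.52 CPM, 0.276). COL9A3 (5.37 and 1.37 CPM, 0.256), COL8A1 (2.72 and 0.494 CPM, 0.181) and COL13A1 (1.21 and 0.279 CPM, 0.230) had the lowest ratios. COL12A1 (7.07 and 3.46 CPM, 0.489), COL16A1 (4.75 and 2.51 CPM, 0.529) and COL10A1 (6.61 and 3.84 CPM, 0.581) were also lower.

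Clustering without the collagens gave 21 SC-β clusters, and 5 of them (clusters 13, 17, 18, 19 and 20) held KO cells alone, 2382 cells or 42.5% of the KO library. Each had its own collagens. Cluster 18 (444 cells), led by ANXA1, TFAP2B, DCN, MUC16 and WNT6, held 1806 of the 1873 UMIs of COL3A1 (96.4%; 554 CPM), 70.0% of those of COL1A2 (168 CPM) and 144 of the 180 UMIs of COL6A3 (44.2 CPM), with COL5A2 at 104 CPM and COL1A1 at 32.5 CPM. Its COL4A1 was at 5.8 CPM. Surface ectoderm genes (TFAP2B at 414 CPM, GABRP at 235 CPM, TFAP2A at 176 CPM) were present there. So were some mesenchyme genes (DCN at 285 CPM, POSTN at 51.5 CPM, TWIST1 at 36.2 CPM, LUM at 32.2 CPM), but PDGFRA (6.44 CPM), PDGFRB (2.76 CPM) and FOXF1 (0.307 CPM) were low. KRT8 (1071 CPM), KRT18 (1145 CPM) and KRT19 (1694 CPM) of epithelium were at their highest of the 21 clusters. PECAM1 was at 0.307 CPM. The cluster was left without a name.

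In the other 4 clusters of KO cells alone, COL2A1 was at 256 to 1026 CPM, beside fibril-associated or basement membrane chains. Cluster 20 (225 cells) was called hepatic-like from AFP, FGA and FGB among its leading genes, although ALB was at 9.31 CPM beside FGB at 3539 CPM and AFP at 2497 CPM, and it had COL2A1 at 1026 CPM, COL14A1 at 316 CPM and COL11A1 at 169 CPM (47.3% of its UMIs). Cluster 13 (661 cells), led by EPHA7 and CDH6, held 42.5% of the COL14A1 UMIs (169 CPM), with COL2A1 at 256 CPM. Cluster 19 (621 cells), led by PIEZO2, CFTR and SOX17, held 37.6% of those of COL19A1 (86.7 CPM), with COL2A1 at 522 CPM. Cluster 17 (431 cells), led by CST1 and SOX17, had COL18A1 at 474 CPM, COL4A2 at 314 CPM, COL4A5 at 295 CPM, COL4A6 at 180 CPM and COL4A1 at 141 CPM, beside COL2A1 at 483 CPM.

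In clusters shared by both genotypes the collagens could be compared without these cells. Cluster 7 (407 WT and 543 KO cells), led by LMX1A and TPH1, was 8.09% of all cells and held 75.6% of the COL5A2 UMIs (482 CPM), with 333 CPM in WT and 583 CPM in KO (1.75, 1.63 to 1.89). Cluster 8 (215 WT and 310 KO cells), led by GCG and TTR, held 48.9% of those of COL25A1, with 154 CPM in WT and 150 CPM in KO (0.969, 0.83 to 1.13). COL16A1 (52.5 CPM) and COL12A1 (42.5 CPM) were high in cluster 9, which NEUROG3 led, and COL8A1 in cluster 10 (14.03 CPM, 62 of its 124 UMIs). COL2A1 was higher in KO in 4 of 5 clusters compared, from 52.1 to 194 CPM in cluster 4 (3.73, 3.15 to 4.42). In the other 4 clusters its KO level was between 5.26 and 20.3 CPM, under that of KO barcodes with few UMIs. The part of free RNA in this level was not tested. COL18A1 was lower in KO in 6 of 6, with ratios from 0.430 to 0.871, whereas its ratio over all cells was above 1. Its intervals in cluster 8 (0.415 to 1.02) and cluster 10 (0.601 to 1.23) included 1. KO barcodes with few UMIs had COL18A1 at 138 CPM.

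**Figure D5:**
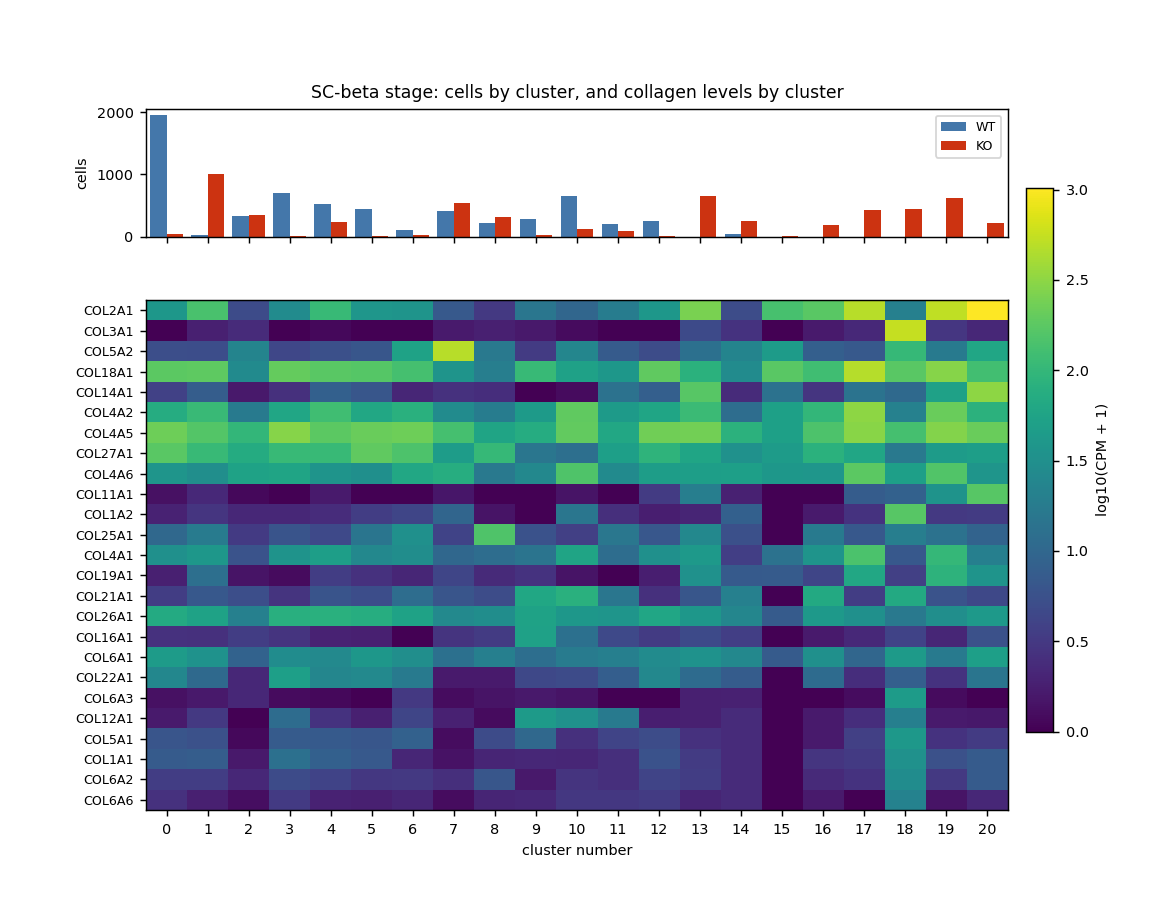
Cells of each genotype in each of the 21 SC-β clusters (bars, number of cells) and the level of each collagen that reached 20 CPM in any cluster (heat map, log10 of CPM + 1). Clusters 13, 17, 18, 19 and 20 have KO cells alone; COL3A1 stands at 554 CPM in cluster 18 and COL5A2 at 482 CPM in cluster 7.

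Leaving out the 5 clusters that held KO cells alone turned the balance of the collagens. Clusters of nearly only WT cells were kept, such as cluster 0 (1952 WT and 36 KO cells) and cluster 3 (702 WT and 14 KO cells). The cut thus changed the mix of cells on the KO side alone, and the genotypes still differed in their cells. More than 1.5-fold higher in KO were then 10 of 38 (11.6% of all 21186 genes counted) and more than 1.5-fold lower 15 of 38 (16.7%). COL1A2 went from above 1 to below it (0.660, 0.488 to 0.886). The type IV chains were at or below 1, with COL4A1 at a ratio of 0.828, COL4A2 at 0.968, COL4A5 at 0.644 and COL4A6 at 0.809, and COL18A1 was at 0.686. COL3A1 kept 33 UMIs in KO against 0 in WT. COL2A1 (2.90), COL14A1 (2.25), COL19A1 (8.44), COL11A1 (2.26), COL5A2 (2.93), COL24A1 (4.62), COL25A1 (1.84) and COL6A3 (1.97) stayed above 1.5-fold, and COL6A2 (1.17) did not. The interval of COL6A3 (0.896 to 4.47) included 1. Of these 8, the KO cells that were left had COL5A2 (104.7 CPM) above the level of KO barcodes with few UMIs, and the other 7 below it, COL2A1 at 72.7 CPM, COL19A1 at 5.69 CPM and COL14A1 at 4.91 CPM among them.

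The genes acting on collagens were read in the single cells by the same fold rule. At PEN, 46 of 57 were counted, with 5 more than 1.5-fold higher in KO (9.06% of all genes) and 6 lower (14% of all genes). The higher ones were the 3 lysyl hydroxylases PLOD1 (1.51), PLOD2 (1.57) and PLOD3 (1.53), HSPG2, the perlecan core protein of basement membranes (1.96), and SPARC (1.54), and the lower ones included the galactosyltransferase COLGALT2 (0.456) and the prolyl hydroxylase P4HA2 (0.573). The intervals of PLOD1, PLOD3, SPARC and P4HA2 included 1. At SC-β, 52 of 57 were counted, with 13 higher (13.7% of all genes) and 5 lower (16.0%). SPARC, which binds type IV collagen, was at 8.17 CPM in WT and 99.7 CPM in KO (12.2), but at 119 CPM in KO barcodes with few UMIs. MMP1 had 3 UMIs in WT and 252 in KO (66.8, 22.6 to 326), and P3H2, a prolyl hydroxylase that acts on type IV collagen, had a ratio of 5.12. HSPG2 (0.519) and PLOD2 (0.613) were lower in KO at SC-β.

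At day 8 of spontaneous differentiation most collagens had a peak of open chromatin near their start in both genotypes, as did most genes. A broad peak lay within 1000 bases of the start of 40 of 44 collagens in WT, against 80.7% of 19216 genes, and of 39 of 44 in KO, against 80.3%. COL3A1, COL5A2, COL20A1 and COL28A1 had none in either genotype, and COL9A1 had one in WT alone (2.33-fold over background, 257 bases wide, −log10 q of 1.62). A peak near a start need not cover it: for COL14A1 the WT and KO peaks were separate and neither covered the start. Starts here were the outer ends of the annotated genes, which can differ from the RefSeq starts of the promoters. For COL9A1 this start was at 70303084, while its RefSeq promoter window ran from 70283148 to 70283447. Fold over background ran from 1.94 (COL7A1 in WT) to 4.28 (COL6A6). Each type IV pair shared 1 peak, at 2.14-fold in WT and 2.02-fold in KO for COL4A1 and COL4A2, whose promoter is printed above, 2.91 and 2.48 for COL4A5 and COL4A6, and 3.89 and 3.82 for COL4A3 and COL4A4. COL9A2 had 2.87 in WT and 2.93 in KO, and COL18A1 2.45 and 2.25. The replicates were merged before peaks were called, so that no error can be given for these folds, and the WT and KO files differed in number of peaks (222750 and 202374).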

How the data were processed

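The deposited bulk counts per gene, made by the authors with fastp, STAR v2.7 and featureCounts against Ensembl GRCh38 and not normalised, were used as deposited. The day 8 file header shows no strand option, so that reads of COL4A2, COL5A1 and COL18A1 and of their antisense genes cannot be told apart. PEN values were deposited by the authors (ScaleBio) and hold estimated counts of UMIs (10.2% and 10.5% of values were not whole) and were summed, then rounded; SC-β counts of UMIs were deposited from Cell Ranger. Peaks were deposited by the authors from MACS2 (hg38, merged replicates) with a fold over background and a −log10 q-value.

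Genes passing filterByExpr were tested with edgeR 4.0.16 (TMM, quasi-likelihood test, Benjamini-Hochberg) in R 4.3.3, all 4 groups sharing 1 fit at day 8. limma-voom 3.58.1, DESeq2 1.42.0, other filters and size factors, and leaving out each library were alternatives. Same-numbered day 8 libraries deviated together (correlations of 0.326 to 0.68 between the 6 pairs of groups); the number is from the column headings. PEN cells had at least 200 genes and under 5% mitochondrial UMIs, SC-β cells 1500 to 5000 genes and under 15%. Doublets were scored with Scrublet at SC-β and kept; it marked 4 WT cells (0.0653%), which is too few to have worked, and 110 KO cells (1.96%). Clusters (scanpy 1.11.5, 10000 counts per cell, 2000 variable genes, 30 components, 20 neighbours, Leiden resolution 1) left out the collagens. Ratios have exact 95% intervals from scipy 1.17.1, which cover counting error only. Collagens with 20 UMIs or more were counted.

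Scripts were tested on simulated data. Members and gene lists were chosen with earlier results of these data known. Collagens named with values in every library were the highest per kilobase in each class, those whose genotypes did not overlap in 1 direction at both bulk time points, those past the adjusted p, and in single cells those past 1.5-fold; of the pathway list, the 6 largest past the threshold. COL7A1, COL5A2, COL6A3 and COL22A1 at day 8, SPARC, and further collagens at day 6, were named after their values were seen. Promoter sequences are those of RefSeq.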

Additional observations from a re-analysis of the deposited data

Results flagged for a closer look

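At day 6 both KO libraries had more COL19A1 than both WT libraries (0.32 on the log2 scale) and at day 8 both had less (−0.58). COL26A1 did the reverse, with −0.059 at day 6 and 0.24 at day 8. Library sets differed between the time points, and the protocols may have differed too. The difference was not tested, and the share of all genes that changed direction in this way was not counted.

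In single cells 5 collagens lay more than 1.5-fold to one side of WT at PEN and to the other at SC-β. The share of all genes that did so was not counted, so the 5 cannot be read as a trait of collagens. With 1 library per genotype at each stage and 2 platforms, these differences were not tested. COL14A1 had a KO over WT ratio of 0.521 at PEN and 17.7 at SC-β, COL1A2 of 0.462 and 3.69, and COL9A1 of 0.448 and 1.77. COL9A3 had a ratio of 2.72 at PEN and 0.256 at SC-β, and COL10A1 of 1.56 (with an interval that included 1) and 0.581.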

How the results depend on the processing

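With no filter on low counts, more was called: 6 of 42 collagens at day 6 (COL2A1, COL4A1, COL4A2, COL4A6, COL9A3 and COL18A1) among 580 genes, and at day 8 1 collagen of KO against WT (COL3A1; 31 genes), 3 of WT+H2O2 against WT (136 genes), 2 of KO+Se against KO (19 genes), 0 of KO against WT+H2O2 (33 genes) and 6 of KO+Se against WT (151 genes). DESeq2 called 149 genes at day 6, and 2, 3 and 2 genes for KO against WT, KO against WT+H2O2 and KO+Se against WT; limma-voom, and a fit of the 2 groups alone, called 0 for KO against WT+H2O2. A CPM filter gave 106 genes at day 6. With the replicate block, 7 collagens were called among 842 genes at day 6 (23.3% of 30 collagens and 5.75% of all genes), where the shared letter is only a name (1 correlation of 0.259): COL4A1 at 0.42 (adjusted p = 4.79e-08, edgeR) and COL4A6 at −0.36 (6.52e-06) were among them. At day 8 the replicate block gave 2, 26 and 0 genes for the first 3 comparisons and 3 for both others, and changed no collagen call. Leaving out 1 library gave 0 to 10 collagens (libraries named by their column headings: 10 without WT E2, 0 without WT F1, 2 without KO E1 or KO F1) and 201 to 977 genes at day 6, 0 to 0 genes for KO against WT+H2O2, and 8 to 15 collagens and 1620 to 4310 genes for number 8 against 5 (1620 without KO 5, 1647 without KO 8, 1746 without KO+Se 5, 1798 without KO+Se 8); a lone library was then assumed to vary like the others. Without clusters of KO cells alone, the ratio of COL1A2 reversed (0.660), and that of COL11A2 (0.605) rested on 19 UMIs, with an interval that included 1 before and after. At resolution 0.5 there were 7 PEN and 13 SC-β clusters, and the share of COL5A2 UMIs was 77.1%. No collagen start had a peak of 5-fold or more (0 in WT and 0 in KO). The cause was not tested. Of 205 other values for single collagens in bulk, 184 kept their side of the threshold, 21 passed it and 0 reversed. Of 117 other values for single-cell ratios, 104 stayed within the first interval, 11 left it and 2 reversed. Among 10 other values for cluster shares of further collagens, 7 stayed within the first interval and 3 left it. Depth limits the collagens under 20 UMIs and those under the count filter, for which no difference was detectable here.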
